A study of Mus musculus with 12 samples.

Results

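The last interval of a stepwise differentiation of mouse embryonic stem cells toward pancreatic progenitors was examined gene by gene, with the 3 arrays of day 15 set against the 3 arrays of day 8. A gene entered when its probe had a detection p-value under 0.05 on all 3 arrays of either day, which 8755 of the 9657 tested genes met. Illumina bead arrays measured total RNA of the embryonic stem cell line W9.5, and the series holds 12 of them, 3 for each of the sampled days 0, 4, 8 and 15. By the labels the cells received activin A first, then retinoic acid, then retinoic acid together with FGF, and both days of the comparison share this one treatment text. No label ties an agent to a day, so the agents present between the 2 samplings cannot be told apart. Nor do they say whether replicates came from separate cultures, so the p-values measure the spread between these arrays, which may be technical. All RNA came from whole cultures of 1 line with no sort, and fewer cells of a type cannot be told apart from less RNA per cell.

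In the embryo, definitive endoderm forms from epiblast under Nodal signalling, for which activin is a laboratory stand-in, and retinoic acid and FGF then pattern the gut tube from which pancreas, liver and stomach bud. Embryonic stem cells can also form extraembryonic endoderm, the visceral and parietal yolk sac layers, which share many genes with definitive endoderm and liver. Pdx1, Ptf1a and Nkx6-1 are transcription factors that define the pancreatic bud, and Neurog3 switches on the endocrine programme.

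Values are log2 intensities after background correction and quantile normalization, so a difference of 1 is a 2-fold change. Differences are given with the standard error of the fit and level means with the SD of 3 arrays, and the faintest signal counted as detected lay between 5.04 and 5.20 on the 6 arrays. Of the 8755 genes, 2113 changed at an adjusted p under 0.05 in limma (24.1%), 1210 of them higher on day 15 (13.8%) and 903 lower (10.3%). Over all 9657 tested genes 22% changed, 12.6% higher and 9.39% lower. At least 2-fold changes were fewer, with 396 of the 8755 genes higher (4.52%) and 184 lower (2.1%), which are 4.1% and 1.91% of all tested genes. These last counts depend on the background correction: 243 to 254 genes were higher and 98 to 113 lower by 2-fold with the authors' table, with no background subtraction or with a larger offset. A 4-fold change was met by 101 genes on the higher side and 34 on the lower. The median difference over the 8755 genes was -0.04, the median absolute difference 0.24 and the median standard error 0.16. The values of the 2 days did not overlap for 3399 genes (38.8%), more than the 24.1% that passed the test.

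**Figure D1:**
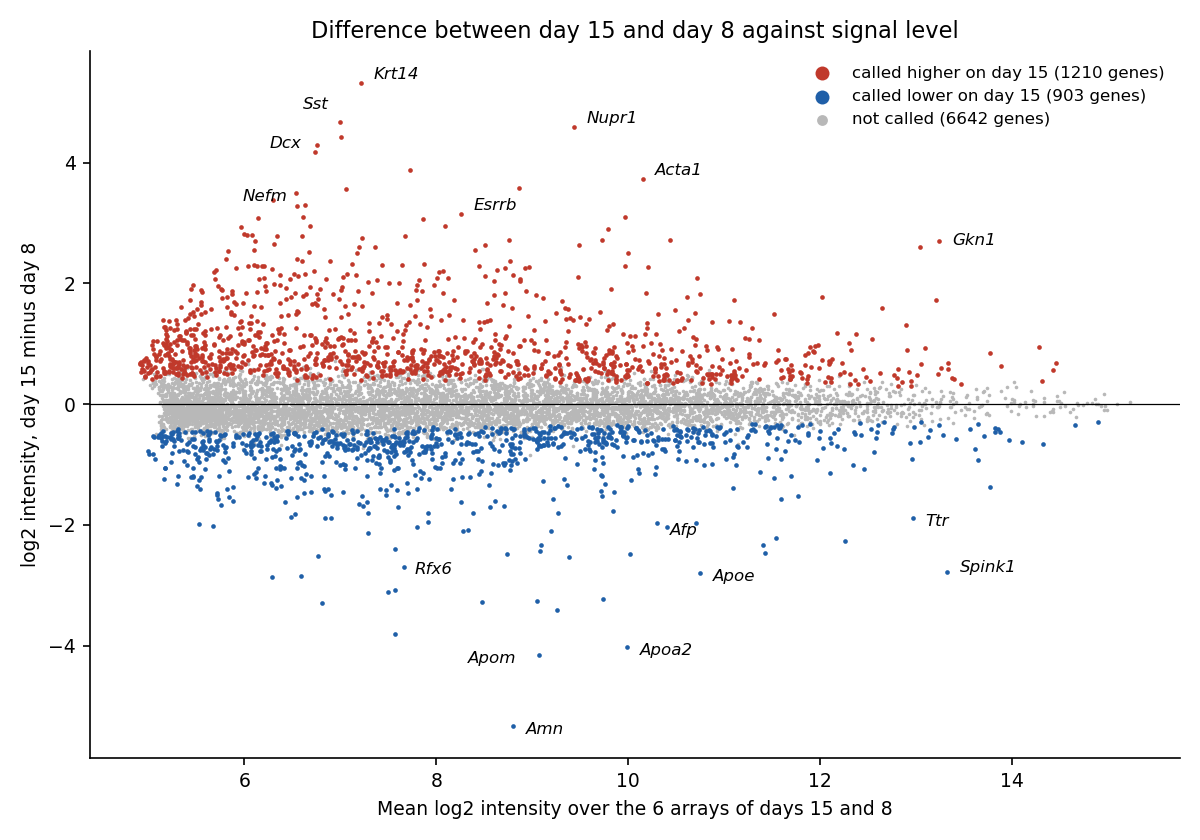
Log2 difference for each of the 8755 genes (y axis, day 15 minus day 8) against its mean level over the 6 arrays (x axis, log2 intensity). Coloured points passed the test at an adjusted p under 0.05, grey points did not. Krt14 has the largest rise and Amn the largest fall, both over 5 log2 units, and differences narrow for the brightest probes.

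The arrays of a day were close to each other, with correlations over genes of 0.989 to 0.990 within day 15 and 0.991 to 0.993 within day 8, and 0.961 to 0.968 between the days. More probes were detected on day 15 (12283, 12554 and 12365) than on day 8 (11767, 12028 and 12056), with no overlap. The part of this difference in the gene counts was not tested, and an exact permutation test of 3 against 3 arrays cannot go below the p of 0.1 that it gave. Where a gene was not detected on any array of its low day, the change is given as "at least" so many fold, against the higher of the array's detection floor and the probe's own value. The low day was detected on 2 of 3 arrays for Col26a1, Ctsj, Dll3, Ebf1, En2, Gjb2, Nr5a2, Rufy3, Tek and Tfec, and on 1 of 3 for Crmp1, Dnajc6, Gjb6, Plac1, Serpinb9f, Serpinf2 and Slc17a6, whose folds are those measured. Genes below detection on 1 day could enter only through their high day: 162 of the 192 genes detected on all day 15 arrays and on no day 8 array were higher, and 36 of the 40 with the opposite pattern were lower. Most higher genes (920) had their highest mean of the 4 days on day 15, while 148 had it on day 0 and 142 on day 4. Among the lower genes, the highest mean fell on day 8 for 499, and on an earlier day for the others (262 at day 0, 142 at day 4).

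Most genes of visceral endoderm fell, and so did those of many lipoproteins and plasma proteins that yolk sac and liver secrete. Of 20 visceral endoderm genes measured (of 23 on the array), 17 fell and 0 rose, with a median difference of -1.32. Amn encodes amnionless, the membrane anchor of the cubilin receptor in visceral endoderm, kidney and gut. Its values were 6.12, 5.97 and 6.33 on the day 15 arrays, against 11.60, 11.29 and 11.51 on the day 8 arrays, a 40.2-fold fall (-5.33 ± 0.15 (SE), limma adjusted p = 1.93e-13). The groups lie far apart, and Amn on day 15 was also lower than in the stem cells, which averaged 9.80 ± 0.25 (SD, n = 3). Dpp4, a surface peptidase, gave 8.06, 8.17 and 8.13 on day 15 and 11.42, 11.37 and 11.26 on day 8, a 9.41-fold fall. The endopeptidase gene Ctsh fell 5.05-fold, and the thyroid hormone carrier Ttr 3.71-fold, though Ttr remained bright on day 15 (12.18, 11.70 and 12.19). Afp, the fetal plasma protein of yolk sac and liver, read 8.84, 8.87 and 10.24 on the day 15 arrays, against 11.52, 11.01 and 11.33 on the day 8 arrays. The third day 15 array thus sat over 1 unit above the other 2 and still below every day 8 array, and the mean fall was 3.92-fold. Hnf4a, the nuclear receptor that drives many of these genes, fell 2.37-fold, and the hedgehog ligand gene Ihh 2.66-fold. Sox17, a transcription factor of both endoderm types, did not pass the test, with 12.04, 12.14 and 12.13 on day 15 and 12.06, 12.49 and 12.48 on day 8 and a difference of -0.24 ± 0.16.

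Lipoprotein genes fell almost throughout: 12 of 15 measured (of 24 on the array) were lower and 2 higher, with a median of -1.19, or -0.789 in the authors' table. Apom, a carrier in high density lipoprotein, gave 6.85, 6.74 and 7.40 on the day 15 arrays, against 11.36, 10.74 and 11.33 on the day 8 arrays, a 17.8-fold fall. Apoa2 read 7.70, 7.85 and 8.38 on the day 15 arrays, against 12.06, 11.84 and 12.11 on the day 8 arrays, a 16.3-fold fall, so that most of its day 8 signal was gone. Apob, the structural protein of chylomicrons, fell 9.83-fold and was still detected on 2 of 3 day 15 arrays, and Mttp, the transfer protein that loads Apob with lipid, fell 8.63-fold. Apoe, Apoa1 and Apoc1 fell 6.97-fold, 5.43-fold and 5.03-fold. Apoe and Apoc1 were already present on day 0, whereas Apoa2 averaged 4.69 ± 0.16 there and 5.28 ± 0.20 on day 4, near background. The members that rose, Apod and Sar1b, did so by at least 1.06-fold and 1.29-fold, and both calls were lost under several other settings.

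Among plasma protein genes 11 of 17 fell and 1 rose (median -1.07, 43 on the array). The median was -0.695 with an offset of 50, -0.681 without background correction and -0.096 over the members detected on all 12 arrays. The complement component C2 fell 9.70-fold, with 6.85, 6.57 and 7.10 on the day 15 arrays, against 10.07, 10.22 and 10.05 on the day 8 arrays. Spp2, a secreted phosphoprotein, fell 9.58-fold, the plasmin inhibitor gene Serpinf2 7.24-fold, and the anticoagulant protease gene Proc at least 6.28-fold. Pros1, the cofactor of the Proc product, moved the other way, 1.83-fold higher. The fibrinogen chain Fga and the prothrombin gene F2 did not pass the test, with differences of -0.24 ± 0.17 and -0.19 ± 0.21. Alb, which encodes albumin, the main product of hepatocytes, was detected on no array.

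**Figure D2:**
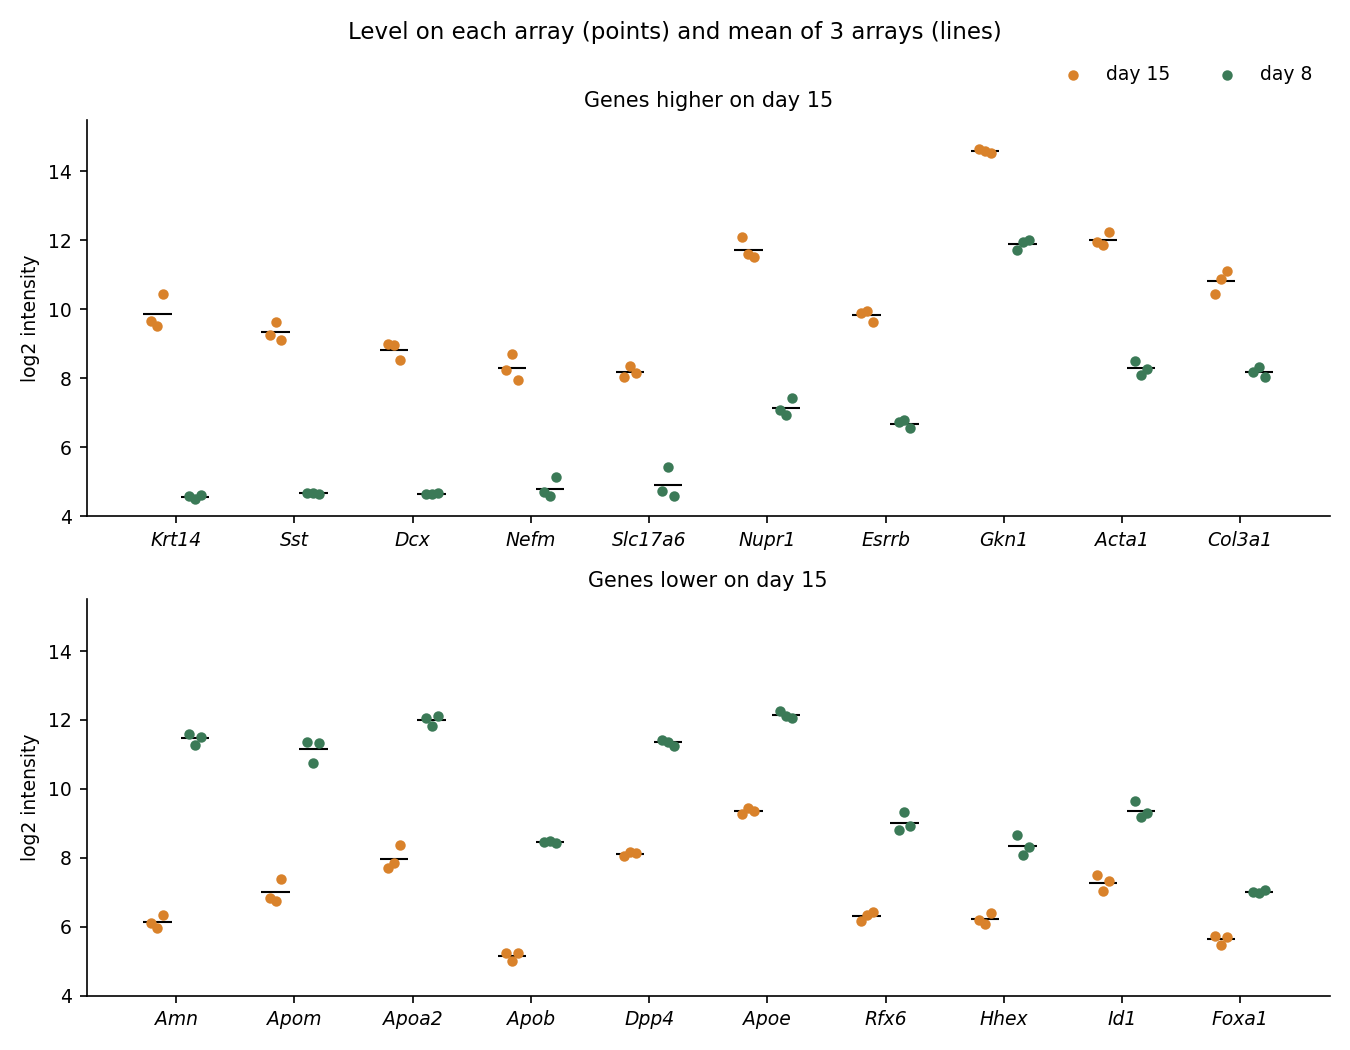
Log2 intensity of 10 genes higher on day 15 (upper panel) and 10 lower (lower panel), with a point for each array, the day 15 arrays left of the day 8 arrays, and a line at the mean of 3 arrays. The 2 days do not overlap for any of these genes, and Krt14, Sst and Dcx sit at background on day 8.

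The genes of definitive endoderm and the foregut split. Of 22 measured, 9 fell and 4 rose, against 10.3% and 13.8% of all 8755 genes, with a median of -0.39. Gata6, which encodes a GATA factor of endoderm and heart, read 12.17, 12.06 and 12.27 on day 15 and 12.18, 12.53 and 12.24 on day 8 and did not pass the test (-0.15 ± 0.13). Foxa2, a pioneer factor of the gut tube, differed by -0.30 ± 0.17, adjusted p = 0.239, and Gata4 by -0.37 ± 0.15, adjusted p = 0.104, which passes once the replicate block is fitted (adjusted p = 0.00683). Gata4 also passes with median scaling, with the mean of all probes and without the first day 15 array. Foxa1 fell 2.62-fold, and Hhex, a homeobox gene of the anterior endoderm that forms liver and pancreas, fell 4.38-fold with 6.19, 6.07 and 6.41 on the day 15 arrays, against 8.66, 8.09 and 8.31 on the day 8 arrays. Hhex had stood at 8.20 ± 0.09 on day 0 and 8.11 ± 0.15 on day 4, so day 15 was its lowest point. Spink1, a trypsin inhibitor, read 11.92, 11.80 and 12.07 on the day 15 arrays, against 14.70, 14.71 and 14.74 on the day 8 arrays, a 6.91-fold fall. Clic6 and Nepn fell 5.54-fold and 5.57-fold, and the mesendoderm factor gene Eomes 3.08-fold. The chemokine receptor gene Cxcr4, used to sort definitive endoderm, rose 2.71-fold.

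The basement membrane genes of parietal endoderm stayed high in the same arrays. Of 30 measured, 6 rose, 5 fell and 19 did not pass the test, while over all 8755 genes 13.8% rose and 10.3% fell. The median of the 30 was 0.03, or -0.116 with median scaling, and 3 fell without the first day 15 array or the second day 8 array. Col4a2, a type IV collagen chain, read 15.25, 15.25 and 15.25 on day 15 and 15.25, 15.25 and 15.16 on day 8, the highest value any gene had on each of the 6 arrays. At 15.25 quantile normalization can show no further rise, and only the third day 8 array, at 15.16, lay below that. Lama1, a laminin chain of the earliest basement membranes, read 10.58, 10.11 and 10.37 on day 15 and 10.13, 10.46 and 10.38 on day 8, a difference of 0.03 ± 0.18. Lamb1 and Sparc differed by 0.30 ± 0.15 and 0.05 ± 0.15. On both days these 4 genes stood over 2 units above their day 4 means, that of Lama1 for instance being 7.10 ± 0.25. Nid1, the nidogen that links laminin to type IV collagen, rose 3.53-fold, and Thbd, the thrombomodulin gene of parietal endoderm and endothelium, rose 3.44-fold. Sox7, a transcription factor of parietal endoderm, fell 2.08-fold, and Hspg2, the perlecan gene, 2.02-fold.

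Pdx1 and 5 other transcription factors of the pancreatic bud were detected on no day 15 array. Pdx1 was detected on 0 of 3 day 15 arrays and 1 of 3 day 8 arrays, and Ptf1a, Nkx6-1, Mnx1, Nkx2-2 and Neurog3 on 0 arrays of either day, so none of the 6 could be tested. A probe below background limits the signal and does not show that the RNA is absent. Of the 14 progenitor genes that could be measured, 4 fell and 2 rose (median -0.23), against 10.3% and 13.8% of all 8755 genes. The falls were those of Hhex, Foxa1, Hnf4a and Isl1, the last 1.85-fold lower. Sox9, a factor of the multipotent bud and of many other progenitors, read 8.37, 8.67 and 8.73 on day 15 and 8.50, 8.51 and 8.43 on day 8 and did not pass (0.11 ± 0.16), and Prox1 differed by 0.17 ± 0.17. Onecut2 rose 1.76-fold although its days overlap, with 6.92, 6.86 and 6.08 on day 15 and 5.66, 6.13 and 5.63 on day 8. Nr5a2 rose 2.77-fold, and it is also a gene of naive stem cells, averaging 9.51 ± 0.13 on day 0.

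Endocrine genes rose in part, most of them genes that neurons share. Among 9 measured, 6 rose and 2 fell. Myt1 and St18, zinc finger factors of endocrine precursors and neurons, rose at least 4.94-fold and at least 2.44-fold, Insm1 at least 2.52-fold, and Neurod1, a basic helix-loop-helix factor of both lineages, 2.10-fold. Rfx6, a factor of endocrine cells and early gut endoderm, gave 6.17, 6.35 and 6.41 on the day 15 arrays, against 8.81, 9.32 and 8.92 on the day 8 arrays, a 6.52-fold fall. On day 4 it had averaged 4.70 ± 0.11, so day 8 was a peak between lower days. Of 5 hormone genes measured, 3 rose and 0 fell. Sst, the somatostatin gene of delta cells, gut and neurons, read 9.27, 9.64 and 9.11 on the day 15 arrays, against 4.67, 4.66 and 4.65 on the day 8 arrays, at least 18.1-fold higher. Sct, the secretin gene, rose 4.90-fold and Cck, the cholecystokinin gene, at least 1.53-fold. Ins2 averaged 5.20 ± 0.07 on day 15 and 5.23 ± 0.20 on day 8, near background on both days and without a called difference (-0.03 ± 0.17), and Gcg, Ppy and Ghrl were detected on no array of either day. In the exocrine and duct list 2 of 13 rose and 4 fell, against 13.8% and 10.3% of all 8755 genes. Among them were the acinar factor gene Bhlha15 (at least 2.29-fold higher) and Spink1 (lower). The acinar amylase gene Amy2a5 was the other that rose. It averaged 5.65 on day 15 with detection on 3 of 3 arrays, and was detected on 0 of 3 day 8 arrays. Cpa1, a carboxypeptidase of acinar cells, was detected on no array.

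Genes of the stomach and intestine moved in both directions, with 7 of 19 higher and 9 lower. Gkn1, which encodes the gastric peptide gastrokine, read 14.64, 14.59 and 14.55 on the day 15 arrays, against 11.73, 11.94 and 12.01 on the day 8 arrays, 6.50-fold higher. Gkn2 rose 6.07-fold, the trefoil peptide gene Tff1 6.72-fold, and Pga5, a pepsinogen gene, 1.93-fold, while Pgc, another pepsinogen gene, differed by -0.35 ± 0.16. Gkn1 had averaged 5.87 ± 0.30 on day 0 and 10.88 ± 0.16 on day 4, so its rise spans the whole course. Among the genes that fell, Lgals2 fell 10.6-fold, the membrane mucin gene Muc13 4.27-fold, the villin gene Vil1 2.33-fold and the goblet cell peptide gene Tff3 2.27-fold. Epithelial junction genes fell as well, 10 of 23 measured against 1 that rose (0 without the first day 15 or the third day 8 array), with a median of -0.39. Cldn7, a claudin of tight junctions, fell 3.51-fold, Ap1m2, the epithelial adaptor subunit for basolateral sorting, 3.06-fold, the protease inhibitor gene Spint1 2.09-fold and Ocln 1.94-fold.

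**Figure D3:**
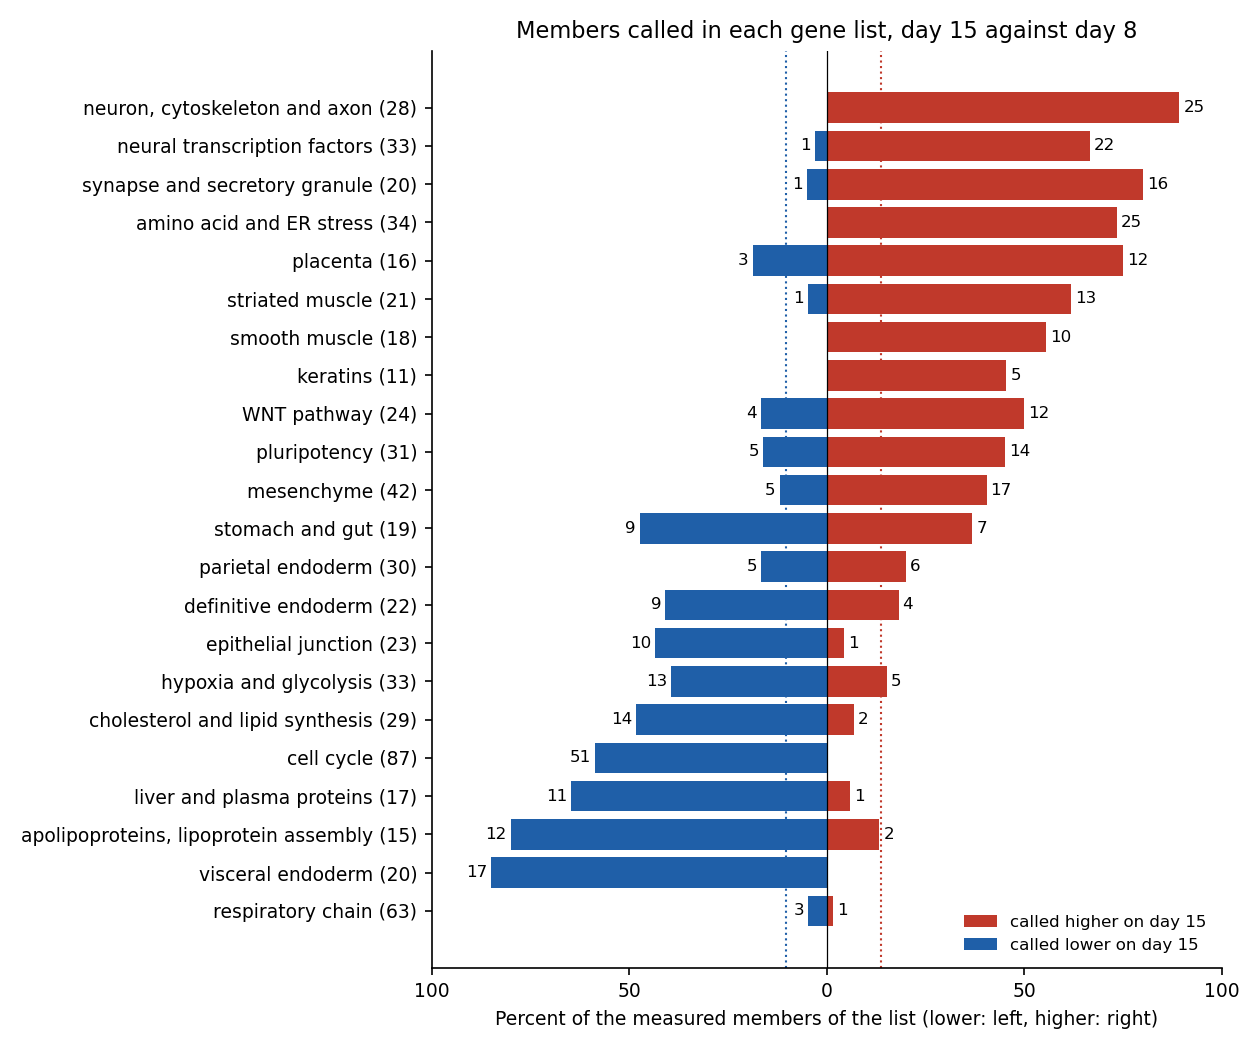
Percent of the measured members of each gene list that were higher on day 15 (right) or lower (left), with the number of genes at each bar and the number measured beside the name. Dotted lines mark the shares over all 8755 genes, 13.8% higher and 10.3% lower. The neuronal bar holds 25 of 28 genes on the right, and the visceral endoderm bar 17 of 20 on the left.

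Most of the measured neuronal genes rose, several of them from below detection. Of 28 genes of the neuronal cytoskeleton and growth cone, 25 rose and 0 fell, with a median of 1.94, where 7 of the 28 were detected on no day 8 array. The median was 1.391 with an offset of 50, 1.382 in the authors' table and 1.373 without background correction. Over the 13 members detected on all 12 arrays it was 1.306, and 11 of them rose. Dcx, the doublecortin of migrating neurons, read 8.99, 8.95 and 8.53 on the day 15 arrays, against 4.64, 4.65 and 4.67 on the day 8 arrays, at least 12.7-fold higher. Nefm, a neurofilament subunit, read 8.24, 8.70 and 7.94 on the day 15 arrays, against 4.70, 4.57 and 5.13 on the day 8 arrays, at least 8.77-fold higher. Both were below detection on every day 8 array and clear on every day 15 array. Elavl4, an RNA-binding protein of postmitotic neurons, rose 9.82-fold and was detected on 1 of 3 day 8 arrays, and Crmp1, a semaphorin signal mediator, 7.72-fold. Gap43, the growth cone protein, was detected on all 6 arrays, with 11.20, 11.52 and 10.55 on day 15 and 8.48, 8.33 and 8.27 on day 8, and rose 6.62-fold. Tubb2b, an abundant neuronal tubulin, rose 2.47-fold and Tubb3, the tubulin used as a neuronal marker, 1.73-fold. Map2, another standard neuronal marker, was detected on no array by any of its 6 probes.

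The synaptic and secretory genes followed, with 16 of 20 higher and 1 lower (median 0.96, or 0.605 with an offset of 50 and 0.632 without background correction). Slc17a6, the vesicular glutamate transporter of excitatory neurons, read 8.04, 8.36 and 8.16 on the day 15 arrays, against 4.73, 5.42 and 4.57 on the day 8 arrays, 9.69-fold higher. Syp, a synaptic vesicle protein, rose 3.86-fold, Syt4 3.52-fold, and Gad1, which makes the inhibitory transmitter GABA, at least 1.56-fold. Ddc, an enzyme of monoamine synthesis that endoderm also expresses, was the member that fell, 1.64-fold. Outside this list, the neuropeptide gene Cartpt rose at least 4.82-fold and Calb2, the calretinin of interneurons, at least 7.14-fold. Cdk5r1, the neuronal activator of a cyclin-dependent kinase and also not on the list, rose 7.69-fold.

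Among 33 neural transcription factors, 22 rose and 1 fell (Isl1), with a median of 1.06. That median lay between 0.569 and 0.669 with an offset of 50, no background correction, the authors' table, the mean of all probes or detection on all 12 arrays. Ebf1, Ebf2 and Ebf3, which promote neuronal differentiation, rose 4.20-fold, at least 2.37-fold and at least 1.56-fold. Zic1 rose 3.71-fold and En2, the midbrain and hindbrain engrailed gene, 4.45-fold. Nr2f1, an orphan nuclear receptor of the developing brain that is not among the 33, rose 7.45-fold. En2 on day 15 was below the stem cells, however, which averaged 8.23 ± 0.11. Tfap2b rose 4.40-fold, and the crest and glial genes Sox10 and Ednrb rose at least 2.35-fold and 3.86-fold. Of the 10 progenitor, glial and crest genes measured, 3 rose (5 without the first day 8 array) and 1 fell, the astrocyte and radial glia transporter gene Slc1a3 being 1.61-fold lower. Of the 4 among them detected on all 12 arrays, 0 rose and 1 fell. The forebrain factor Otx2 did not pass the test (-0.20 ± 0.20), and Pax6 was detected on no array.

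Part of the stem cell programme was higher on day 15 than on day 8. Of 31 pluripotency genes measured, 14 rose and 5 fell, with a median of 0.39. Esrrb, a nuclear receptor of naive stem cells, read 9.88, 9.96 and 9.64 on the day 15 arrays, against 6.73, 6.77 and 6.55 on the day 8 arrays, 8.84-fold higher. Klf2, another naive factor, read 8.53, 8.36 and 8.59 on the day 15 arrays, against 5.85, 5.96 and 5.86 on the day 8 arrays, 6.07-fold higher. Both stayed below the stem cells, where Esrrb averaged 12.97 ± 0.20 and Klf2 11.28 ± 0.08 on day 0. Zfp42 rose 2.62-fold, Sox2 2.08-fold and Utf1 1.68-fold. Gbx2, which is counted among the neural transcription factors and not among these 31 genes, rose 6.57-fold. Nanog rose 1.68-fold, a call lost with median scaling (adjusted p = 0.0937) and without either of 2 arrays. Pou5f1, the gene of Oct4, read 7.54, 7.72 and 7.81 on day 15 and 7.78, 6.95 and 7.57 on day 8 and did not pass (0.26 ± 0.17), nor did Dppa4 (0.31 ± 0.15). Fgf5, a gene of the primed epiblast state, read 5.84, 5.24 and 5.45 on the day 15 arrays, against 7.99, 7.75 and 8.35 on the day 8 arrays, a 5.75-fold fall. The methyltransferase gene Dnmt3b, also high in that state, fell 2.01-fold. Lin28a, which blocks let-7 maturation, fell 2.85-fold and Tbx3 3.04-fold.

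**Figure D4:**
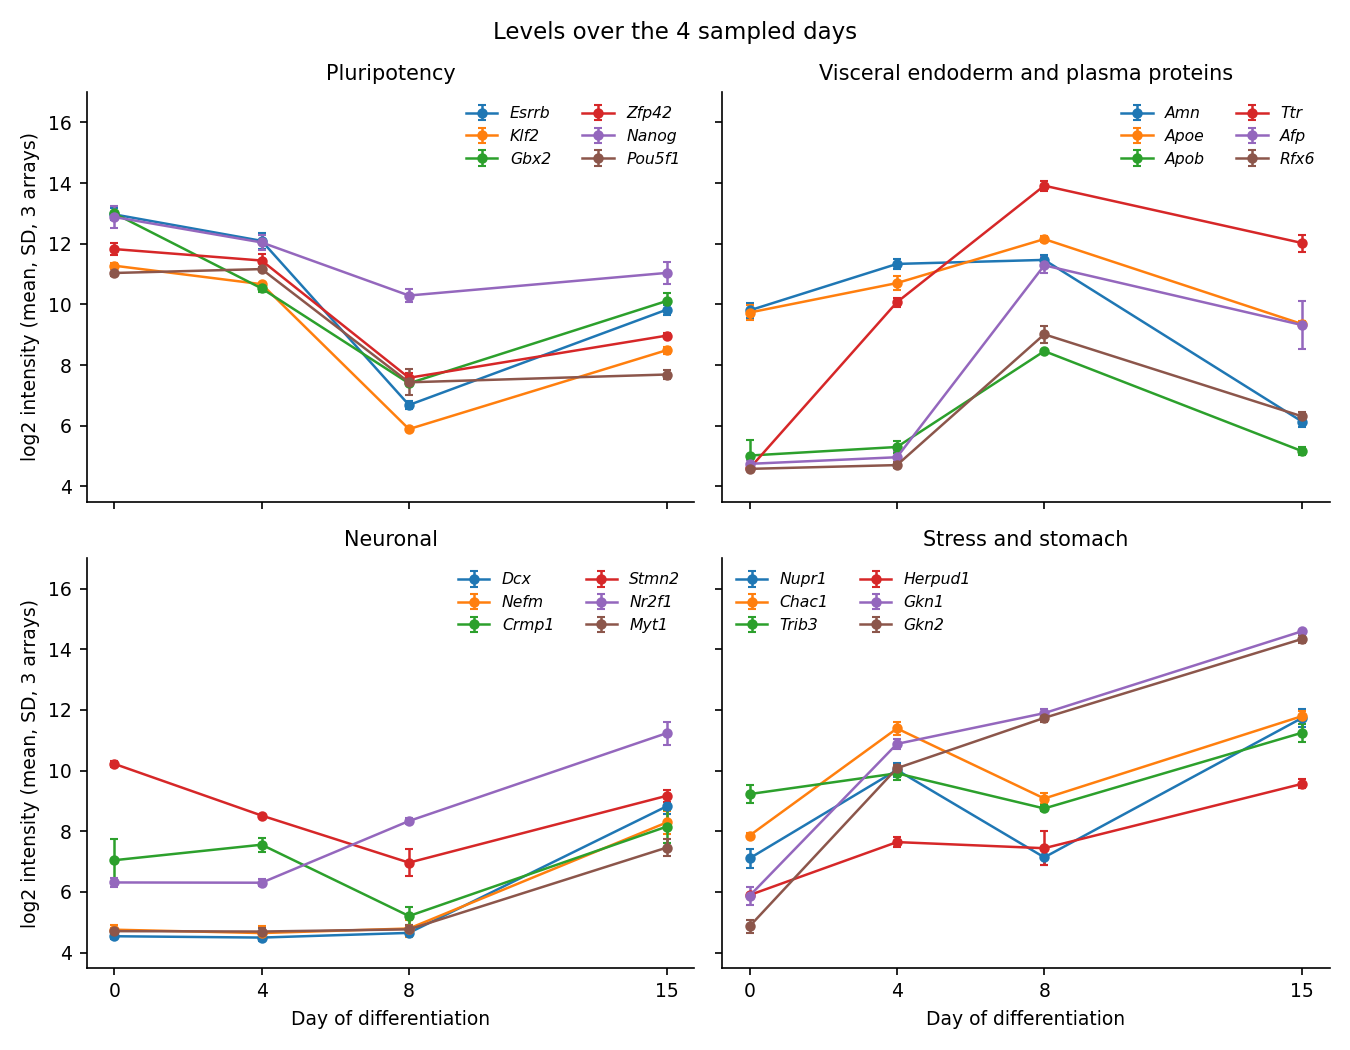
Mean log2 intensity on days 0, 4, 8 and 15 for 24 genes in 4 panels, with error bars of 1 SD over the 3 arrays of a day. Esrrb and Klf2 are highest on day 0, lowest on day 8 and in between on day 15, while Gkn1 climbs throughout and Amn drops after day 8.

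Several keratins rose. Krt14 and Krt15, the keratins of basal cells in stratified epithelia, were detected on no array of days 0, 4 or 8 and rose at least 26.3-fold and at least 16.7-fold, Krt14 reading 9.67, 9.52 and 10.45 on day 15. Krt17 rose 5.73-fold, Krt23 3.11-fold and Krt7 2.65-fold. Krt8, of simple epithelia, read 12.57, 12.50 and 12.35 on day 15 and 12.49, 12.54 and 12.47 on day 8, a difference of -0.02 ± 0.11, and its partner Krt18 differed by -0.45 ± 0.17, adjusted p = 0.0694, which passes with the replicate block (adjusted p = 0.0147). Krt18 also passes with the day 15 and day 8 arrays alone, with median scaling and without the first day 15 array. Among 11 keratins measured, 5 rose and 0 fell, of 34 on the array. For the 7 detected on all 12 arrays, 2 rose and 0 fell, with a median of -0.025 against 0.481 for the 11. Krt5, the usual partner of Krt14, was detected on 2 of 3 day 15 arrays and 0 day 8 arrays and could not be tested. Of 26 further genes of basal epithelium, 8 rose and 0 fell: Trp63, the master factor of basal cells, rose 2.15-fold and the gap junction genes Gjb2 and Gjb6 3.06-fold and 3.18-fold. Of the 18 basal epithelium genes detected on all 12 arrays, 2 rose and 0 fell.

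Most of the placental genes that could be measured rose. Of 16 measured, 12 rose and 3 fell, but 56 were on the array, and most did not pass the detection rule, including Tpbpa of the spongiotrophoblast. Of the 16, 5 were detected on no array of 1 day and could enter only through their high day. Among the 5 detected on all 12 arrays, 3 rose and 2 fell, with a median of 0.712 against 1.717 for the 16. The prolactin family hormone gene Prl2a1 rose at least 13.5-fold, Prl4a1 at least 4.72-fold and Prl7b1 at least 3.85-fold. Ctsj, a placental cathepsin, read 9.94, 9.72 and 9.35 on the day 15 arrays, against 4.93, 6.54 and 5.90 on the day 8 arrays, 14.7-fold higher. Prl2c2, a proliferin, rose 8.37-fold and the serpin gene Serpinb9f 6.29-fold. Prolactins, placental cathepsins and these serpins have near-identical relatives, and which member each probe reads was not tested. The trophoblast genes that fell were Eomes, Cdx2 and Plac1, the last 3.05-fold lower, and the call of Cdx2 was lost without any 1 of 3 arrays.

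Mesenchymal and matrix genes were more often higher than lower, 17 against 5 of 42 measured. The lower count was 2 or 3 without any one of 5 arrays, all but the third day 15 array. Over all 8755 genes 13.8% were higher and 10.3% lower. Col3a1, the fibrillar collagen of loose connective tissue, read 10.45, 10.87 and 11.12 on the day 15 arrays, against 8.17, 8.32 and 8.03 on the day 8 arrays, 6.23-fold higher. Col26a1 rose 8.52-fold, Lum, a collagen-binding proteoglycan, at least 5.93-fold, and Dcn, its relative decorin, 2.66-fold. Zeb1, a repressor of epithelial genes, rose 5.15-fold. Twist1 and Pdgfrb differed by 0.10 ± 0.15 and 0.34 ± 0.22. Gpc3, a glypican, fell 2.99-fold. Of 19 collagens measured, 8 rose and 3 fell, with Col1a1 2.21-fold higher and Col1a2, the other type I chain, at -0.06 ± 0.25 without a call.

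Muscle genes rose too. Acta1, the skeletal muscle actin, read 11.94, 11.87 and 12.23 on the day 15 arrays, against 8.51, 8.09 and 8.27 on the day 8 arrays, 13.2-fold higher. Of 21 striated muscle genes measured, 13 rose and 1 fell. Tnnt2, a cardiac troponin, rose at least 4.53-fold, Actc1, the cardiac actin, 3.78-fold, and the atrial myosin light chain gene Myl7 at least 2.94-fold. Myl3, a ventricular and slow muscle light chain, was already high on day 8 and rose 4.26-fold, with 11.98, 11.51 and 11.80 on day 15 and 9.99, 9.48 and 9.55 on day 8. Tnnc1 fell 1.85-fold, and Myog, a factor of differentiating skeletal muscle, was detected on no array. In smooth muscle 10 of 18 genes rose and 0 fell, Actg2 by 5.85-fold, Acta2 by 3.03-fold and the tropomyosin gene Tpm1 by 2.01-fold. Endothelial genes were mixed, 8 of 16 higher and 3 lower, against 13.8% and 10.3% of all 8755 genes. Cdh5, the endothelial cadherin, rose 4.26-fold, Tek, the angiopoietin receptor, 3.97-fold and Esam 4.83-fold, while Sox7 was among those that fell. Pecam1 was detected on 1 of 3 day 15 arrays and 0 of 3 day 8 arrays and did not pass (0.14 ± 0.17). Kdr was detected on no array. Of the 7 endothelial genes detected on all 12 arrays, 3 rose and 2 fell, with a median of -0.013 against 0.379 for the 16. Among the 7 blood genes measured 4 rose and 2 fell (1 without the first day 15 or the second day 8 array), and Ptprc, Gata1 and Hbb-bh1 were detected on no array.

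Genes of retinoic acid handling rose and fell in similar number, 6 and 4 of 17. Crabp1, a cytosolic retinoic acid binding protein, read 11.37, 11.64 and 11.52 on the day 15 arrays, against 8.53, 8.24 and 8.48 on the day 8 arrays, 8.54-fold higher. Cyp26b1, an enzyme that degrades retinoic acid, rose 4.80-fold, and the homeobox gene Meis1 2.24-fold. The receptor gene Rarb, itself a direct target of retinoic acid, fell 1.74-fold, and Aldh1a1, which makes retinoic acid, 2.00-fold. Cyp26a1, the other inducible degrading enzyme, differed by -0.48 ± 0.17, adjusted p = 0.0554, which passes with the replicate block (adjusted p = 0.021). Its fall also passes with an offset of 50, median scaling, the authors' table or no background correction. The same holds without the variance trend or without the third day 15 array. Of 16 Hox genes measured, Hoxb5 and Hoxb2 rose 3.65-fold and 2.48-fold, while Hoxb7, Hoxc13 and Hoxb13 fell, Hoxb7 by 1.71-fold, and the call of Hoxc13 was lost without either of 2 arrays. Over all 8755 genes the shares were 13.8% higher and 10.3% lower.

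Of 21 FGF genes and targets measured, 4 rose and 6 fell with the replicate block. In the reported fit 3 rose and 3 fell, against 13.8% and 10.3% of all 8755 genes. The ligand genes Fgf5, Fgf15 and Fgf8 were those that fell, Fgf15 by 3.51-fold and Fgf8 by at least 1.85-fold. The feedback inhibitor genes Spry2 and Dusp6 and the ETS factor gene Etv5, which FGF signalling induces, did not pass, with differences of 0.11 ± 0.19, 0.32 ± 0.16 and -0.26 ± 0.18. The immediate early genes Fos and Egr1 rose 3.57-fold and 1.73-fold, Fos with 8.32, 8.16 and 8.25 on day 15 and 6.48, 6.52 and 6.22 on day 8.

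In the Notch pathway 9 of 20 genes rose and 2 fell, and 0 fell without the third day 8 array and 1 without the second or the third day 15 array or the first day 8 array. For this and the next lists, the shares over all 8755 genes were 13.8% higher and 10.3% lower. Dll3, a ligand that acts within the cell, rose 5.19-fold, Mfng, a glycosyltransferase that modifies the receptor, 3.41-fold, Dner, a neuronal ligand, 3.30-fold and the imprinted ligand gene Dlk1 2.98-fold. The target genes Hes1 and Nrarp differed by -0.24 ± 0.13 and 0.23 ± 0.16. Of 24 WNT genes, 12 rose and 4 fell: the secreted inhibitors Sfrp2, Sfrp1 and Dkk3 rose 4.11-fold, 2.78-fold and 2.61-fold, and the feedback target Axin2 1.88-fold, while Frzb, another secreted inhibitor, and the receptor gene Fzd7 fell 1.97-fold and 2.00-fold. Of 31 genes of BMP and TGF-beta signalling, 10 rose and 6 fell. The BMP target genes Id1, Id2 and Id3 fell 4.25-fold, 2.51-fold and 2.37-fold, while their relative Id4 rose 3.48-fold and the ligand gene Bmp4 2.33-fold. Nodal fell 2.02-fold and its co-receptor gene Cfc1 at least 2.73-fold, against the TGF-beta targets Tgfbi and Ccn2, which rose 6.06-fold and 3.30-fold. Of 25 imprinted genes and genes of IGF signalling, 9 rose and 2 fell, and 4 fell with the replicate block, with median scaling or without the second day 15 array. Igfbp1 rose 6.22-fold, Igfbp5 3.41-fold and the growth factor gene Igf2 1.61-fold, on the scale of a very bright probe (14.79, 14.81 and 14.81 on day 15 and 14.11, 14.20 and 14.04 on day 8), while Igf1 fell 2.48-fold.

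Genes of the amino acid and endoplasmic reticulum stress responses rose in many cases. Of 34 measured, 25 rose and 0 fell, with a median of 0.87. In these responses the factor ATF4 acts with C/EBP partners on a composite promoter element, and ATF6 and XBP1 act on a separate endoplasmic reticulum stress element. Promoter stretches from RefSeq (GRCm38.p6) are printed because they hold those elements upstream of genes that rose, in capitals, read on the strand of the gene. The composite element TGATGNAA lay 110 bases before the start of Nupr1 (chr7:126625537-126625616, minus strand), 193 before Chac1 (chr2:119351013-119351092, plus strand), 139 before Fgf21 (chr7:45615586-45615665, minus strand) and 23 before Asns (chr6:7693210-7693289, minus strand), in the first 3 as its reverse complement.
Nupr1: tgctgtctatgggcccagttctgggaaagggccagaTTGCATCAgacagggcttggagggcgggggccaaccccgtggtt
Chac1: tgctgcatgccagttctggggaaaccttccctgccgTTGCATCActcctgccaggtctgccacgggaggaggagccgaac
Fgf21: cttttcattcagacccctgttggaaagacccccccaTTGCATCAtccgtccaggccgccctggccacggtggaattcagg
Asns: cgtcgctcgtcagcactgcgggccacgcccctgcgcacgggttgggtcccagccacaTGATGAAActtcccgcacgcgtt
The endoplasmic reticulum stress element, CCAAT and CCACG with 9 bases between them, lay 65 bases before Hspa5 (chr2:34771995-34772074, plus strand), 126 before Creld2 (chr15:88819490-88819569, plus strand, as its reverse complement) and 98 before Pdia6 (chr12:17266461-17266540, plus strand).
Hspa5: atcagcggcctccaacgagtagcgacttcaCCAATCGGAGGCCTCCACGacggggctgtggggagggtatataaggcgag
Creld2: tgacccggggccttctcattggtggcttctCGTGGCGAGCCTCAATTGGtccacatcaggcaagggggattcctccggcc
Pdia6: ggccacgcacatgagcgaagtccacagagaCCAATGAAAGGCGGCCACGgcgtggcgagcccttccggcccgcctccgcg

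Nupr1, a stress-induced chromatin protein, read 12.09, 11.59 and 11.53 on the day 15 arrays, against 7.07, 6.93 and 7.41 on the day 8 arrays, 24.2-fold higher (4.59 ± 0.19 (SE), limma adjusted p = 1.31e-11). Chac1, which degrades glutathione, read 11.91, 11.60 and 11.88 on the day 15 arrays, against 8.86, 9.23 and 9.14 on the day 8 arrays, 6.57-fold higher. Both had also been high on day 4, at 10.02 ± 0.23 and 11.39 ± 0.21, so day 8 was a low between 2 higher days. Trib3, which restrains ATF4, rose 5.65-fold, Ddit3, the gene of CHOP, 4.03-fold, Atf4 itself 2.26-fold, and Cebpb, a partner of ATF4, 3.00-fold. Fgf21, a stress hormone, rose at least 1.61-fold and the asparagine synthetase gene Asns 1.80-fold. Of the endoplasmic reticulum genes, Herpud1 rose 4.35-fold, the chaperone gene Hspa5 1.86-fold, Creld2 1.88-fold and the disulfide isomerase gene Pdia6 1.59-fold. The serine synthesis gene Phgdh, also an ATF4 target, did not pass (-0.38 ± 0.16). The composite element was found on either strand within 250 bases upstream in 7 of the 28 stress genes with a RefSeq promoter entry (25%), against 2.5% of 7829 tested genes and 3.91% of 27025 genes, and in 9.52% of cholesterol and 7.69% of lipoprotein genes. All 7 (Asns, Atf3, Chac1, Fgf21, Herpud1, Nupr1 and Vldlr) rose, but so did 23 of the 28 stress genes matched, with or without the element. The endoplasmic reticulum stress element, which holds a CCAAT box, was found in 4 of the 28 (14.3%), Hspa5, Hsp90b1, Pdia6 and Creld2, against 0.141% of tested and 0.13% of all genes. These 4 rose as well, and the call of Hsp90b1 was lost with median scaling (adjusted p = 0.259) and without either of 2 arrays. A match of letters is not shown to be a bound site, and these stress genes are on the list because they are known targets, so the shares are no independent finding.

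Many cell cycle genes fell, each by a small amount. Of 87 measured, 51 fell and 0 rose, with a median of -0.49, against -0.04 over the 8755 genes. Melk, a mitotic kinase, fell 2.09-fold with 6.66, 7.07 and 6.97 on the day 15 arrays, against 7.86, 7.87 and 8.15 on the day 8 arrays, and Kif23, a motor of cytokinesis, 2.01-fold. Rrm2 and Tk1, which supply deoxynucleotides for replication, fell 1.98-fold and 1.93-fold, and Ccne1, the cyclin of S phase entry, 1.91-fold. Cdc20, an activator of the anaphase promoting complex, fell 1.54-fold, Cdk1, the mitotic kinase, 1.59-fold and Ccnf 1.61-fold. Pcna, the replication clamp, did not pass (-0.29 ± 0.15) and does so with the replicate block (adjusted p = 0.0286). Among 26 inhibitors and p53 targets, 5 rose and 4 fell, or 2 without the third day 15 or the second day 8 array. Of all 8755 genes, 13.8% rose and 10.3% fell. The kinase inhibitor gene Cdkn1c rose 1.76-fold and Gadd45g 1.93-fold, while the p53 target Cdkn1a differed by 0.11 ± 0.11, a value that turns negative with median scaling.

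Many mitotic promoters carry a cell cycle homology region, TTTGAA, together with CCAAT boxes, and such letters on either strand are in capitals for 3 genes that fell. Cdc20 is read from chr4:118437344-118437423 and Cdk1 from chr10:69352913-69352992, both on the minus strand, and Ccnf from chr17:24251410-24251489 on the minus strand.
Cdc20: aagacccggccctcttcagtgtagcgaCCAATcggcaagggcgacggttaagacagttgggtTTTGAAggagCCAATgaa
Cdk1: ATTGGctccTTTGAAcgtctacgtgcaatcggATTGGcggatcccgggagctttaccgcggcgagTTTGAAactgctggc
Ccnf: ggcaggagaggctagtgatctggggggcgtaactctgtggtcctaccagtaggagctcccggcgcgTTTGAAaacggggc
The stretch of Ccnf holds TTTGAA alone. CCAAT was found within 250 bases upstream in 42 of the 71 cell cycle genes matched (59.2%), against 40.5% of tested genes and 37.5% of all genes. The box was in 64.3% of the 28 stress genes and 85.7% of the 21 cholesterol genes matched. TTTGAA was found in 16 (22.5%), against 13% of tested and 18.3% of all genes, and in 28.6% of visceral endoderm and 23.1% of lipoprotein genes. Of these 16 cell cycle genes 8 fell, as did 42 of the 71 matched. The E2F site TTTCCCGC was found in 5 (7.04%), against 1.93% and 1.03%. For visceral endoderm and lipoprotein genes, the palindromic HNF1 element and the HNF4 element CAAAGTCCA were found in 0 of 14 visceral endoderm and 0 of 13 lipoprotein promoters, which says only that these letters are not in this window; the elements are in 0.0111% and 0.451% of all promoters. The sterol regulatory element TCACCCCA was found in 2 of 21 cholesterol gene promoters (9.52%), against 1.65% of tested and 1.54% of all genes, and in 7.14% of visceral endoderm and 7.69% of lipoprotein genes. Neither of the 2 cholesterol genes changed, while 11 of the 21 matched did.

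Among 33 glycolytic and hypoxia genes, 13 fell and 5 rose, and 8 fell without the first day 15 array. The glucose transporter gene Slc2a3 read 12.78, 13.33 and 13.14 on the day 15 arrays, against 14.25, 14.68 and 14.44 on the day 8 arrays, a 2.59-fold fall. Pfkl, the liver form of phosphofructokinase, fell 1.91-fold, the lactate dehydrogenase gene Ldha 1.88-fold, Pkm 1.67-fold and Tpi1 1.42-fold. Gapdh, often used to normalize expression, fell 1.51-fold, with 13.78, 13.92 and 13.33 on day 15 and 14.43, 14.24 and 14.13 on day 8. The isoform genes Ldhb and Pfkp moved the other way, 2.08-fold and 1.94-fold higher. The hypoxia target Pdk1 differed by 0.29 ± 0.14. Of 29 genes of cholesterol synthesis, uptake and export and of fatty acid synthesis, 14 fell and 2 rose (median -0.39), or 1 rose without the first or the third day 15 array or the second or the third day 8 array. Insig1, a sterol sensor of the pathway, fell 2.30-fold, the lipoprotein receptor gene Scarb1 2.01-fold, the sterol carrier gene Stard4 1.98-fold and the desaturase gene Scd1 1.84-fold. The enzyme genes Lss, Dhcr7 and Ebp fell 1.77-fold, 1.77-fold and 1.75-fold, while the early enzyme gene Hmgcs1 differed by -0.18 ± 0.09. Abcg1, a cholesterol exporter, rose 2.56-fold.

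Few genes of the respiratory chain or the ribosome changed. Of 63 genes of oxidative phosphorylation, 1 rose (0 without any 1 of 4 arrays) and 3 fell, 9 falling with the replicate block. Of 49 cytosolic ribosomal protein genes, 3 rose and 1 fell (5 with the block, 0 without any 1 of 3 arrays), and of 68 mitochondrial ones, 0 rose and 4 fell (11 with the block, and 1 or 2 without any 1 of 4 arrays). These shares lie below the 24.1% of all 8755 genes. For interferon response and antigen presentation, 9 of 32 genes were higher and 2 lower, or 1 lower without the second array of either day. The shares over all 8755 genes were 13.8% higher and 10.3% lower. Ifi27 rose 3.52-fold, Isg20 3.21-fold and Ifitm3 2.88-fold.

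Across 255 transcription factors picked by family name, 77 rose and 38 fell (median 0.11, or 0.047 with median scaling and 0.049 over those detected on all 12 arrays). Foxq1 fell 2.63-fold, beside the falls of Rfx6, Hhex and Foxa1. Tfec, a relative of Mitf that is not among the 255, fell 14.1-fold. Some of the largest changes lay outside these lists. Wfdc1, a secreted protease inhibitor, rose 11.9-fold, with 10.94, 10.48 and 10.52 on the day 15 arrays, against 6.94, 6.98 and 7.29 on the day 8 arrays. Rufy3, a protein of axon formation in neurons, rose 11.9-fold, and Cryba1, a lens crystallin, at least 5.74-fold. Dnajc6, the neuronal auxilin that uncoats clathrin vesicles, rose 6.91-fold and was highest on day 0. On the falling side, Slc7a9, an amino acid transporter of kidney and gut brush borders, fell 8.44-fold and Cpm, a membrane carboxypeptidase, 5.57-fold.

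**Figure D5:**
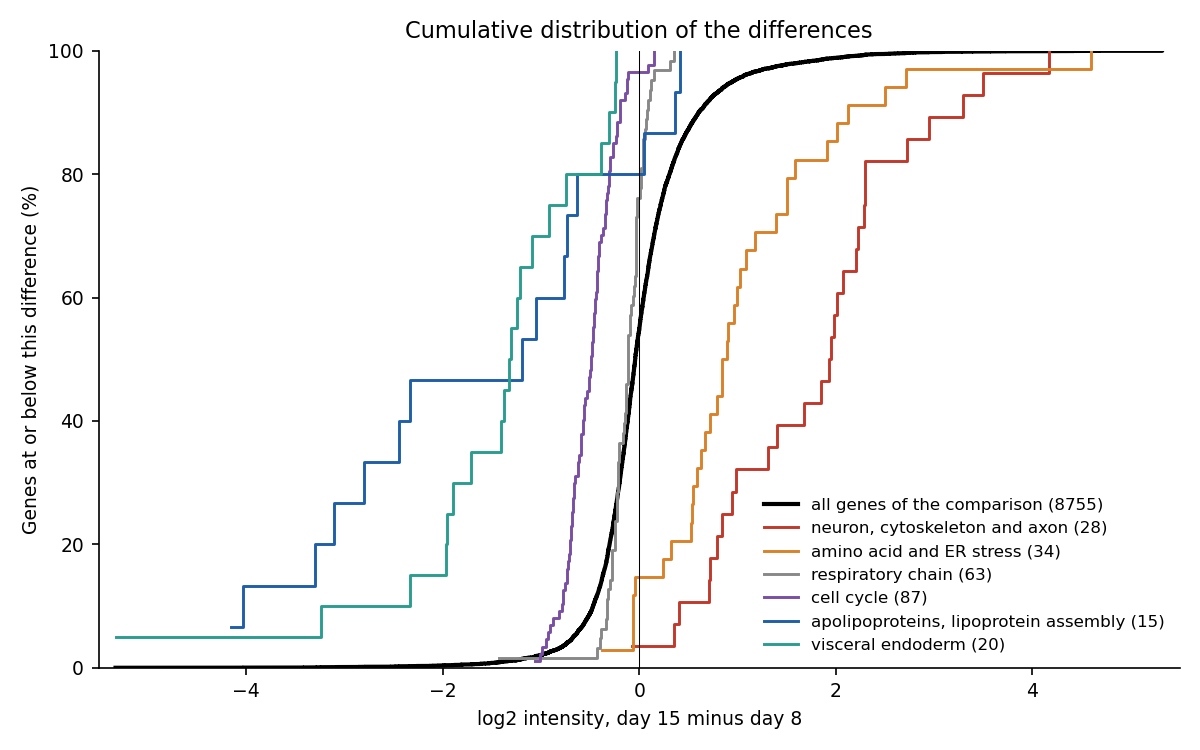
Cumulative share of genes (y axis, percent) at or below each log2 difference of day 15 minus day 8 (x axis), for 6 lists and for all 8755 genes. The cell cycle curve is steep around its median of -0.49, while the neuronal curve crosses its median at 1.94 and reaches above 4.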

How the data were processed

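Total RNA of W9.5 mouse embryonic stem cells was labelled as biotin cRNA and hybridised to Illumina bead arrays, per the labels' protocols, with 3 arrays on each of days 0, 4, 8 and 15. The deposited scanner tables give an average intensity per probe and a detection p-value per the file headers, neither normalized. The deposited value table of the authors holds log2 values whose order over probes matched the scanner intensities on every array, and it served as an alternative. Its normalization by the authors is not stated in the labels or headers.

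Intensities were background corrected by normexp with the negative control distribution inferred from the detection p-values, quantile normalized and put on the log2 scale with an offset of 16 (neqc of limma 3.58.1 in R 4.3.3). Of 24613 probes, 20984 carried 1 gene symbol in the platform annotation, 1 several and 3628 none. A probe stayed if 3 or more of the 12 arrays gave it a detection p-value below 0.05, and the brightest probe stood for a gene, which left 9657 tested genes of 15967 on the array. Limma fitted the 4 day means to all 12 arrays with a trended prior, and p-values of day 15 minus day 8 were adjusted over all 9657 genes by Benjamini-Hochberg, with a threshold of 0.05. Precision is limited by the 3 arrays a day. On simulated data of 9657 genes, this test recovered 38.8%, 88.1% and 100% of differences of 0.5, 1 and 2, and 12 of 163 calls were unmoved genes. Only 67, 67 and 66 genes were moved by these sizes, far fewer than were called in the data. The simulated noise was also independent between arrays, without the correlation by replicate number given below. The rates thus check the procedure and need not hold for this comparison.

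The text names the 20 genes with the largest called, non-overlapping difference in each direction, up to 5 called members in each direction and 2 uncalled members of each list, 12 transcription factors in each direction, and the cell type markers, as far as they help the description. Beyond this rule, 51 of the named genes, those of the promoters among them, were chosen after their values were seen. The comparison, its members, the gene lists and the motifs were chosen with earlier results of these data known, and the 2 stress motifs were kept for printing after others had been searched. The replicate numbers come from the titles. Deviations from the day means correlated between same-numbered day 15 and day 8 arrays (0.44, 0.336 and 0.339), against -0.308 to -0.052 between arrays of unlike number. What a shared number stands for is not stated. The reported fit has no block for this number and so ignores any pairing. A fit with the block is given for named genes whose call it changed and for some lists. The other alternatives were the 6 arrays alone, another offset, scaling, background, filter, probe rule and prior, and each array left out. Promoters cover 250 bases before each gene's start in RefSeq GRCm38.p6, matched by symbol.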

Additional observations from a re-analysis of the deposited data

How the results depend on the processing

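Of 216 genes named here that changed, 210 kept the call under every one of 17 alternatives that tested them. The other 6 lost it when single arrays were left out, 3 of them also under another setting, and none changed direction. With detection required on all 12 arrays, 93 of the 216 were not tested. The naming rule favours large differences without overlap, so these counts do not describe all calls. Of all 2123 calls, 1648 to 1724 were kept when 1 array was left out. With the replicate number as a block, which the pairing check allows, 2858 genes changed, 1512 higher and 1346 lower, and all 2123 calls were kept. The block added calls for Gata4, Krt18, Pcna and Cyp26a1 and changed no other call among the named genes. Lists gained calls too: with the block 66 cell cycle genes fell (51 without it) and 14 epithelial junction genes (10 without it). In definitive endoderm 12 fell (9 without it), and in parietal endoderm 9 rose and 7 fell (6 and 5 without it). Leaving out each array in turn gave 1697 to 1894 changed genes, 1009 to 1102 higher and 673 to 803 lower. The count of genes higher on day 15 was 768 when only genes detected on all 12 arrays were tested, which by its construction leaves out genes absent on a day. At least 2-fold higher were 254 genes with an offset of 50, 243 in the authors' table, 251 without background correction and 189 with detection on all 12 arrays, and at least 2-fold lower were 113, 98, 107 and 106 in the same order, against 396 and 184. With median scaling 50.4% of calls were higher on day 15, against 57.3%, and the median of all genes was -0.095, against -0.041. Genes without a call near 0 turned sign with median scaling: Cdkn1a (-0.079), Col4a2 (-0.085), Lama1 (-0.133) and Sparc (-0.159). They did so also without single arrays, where Col1a2 ran between -0.293 and 0.365, Ins2 between -0.146 and 0.042, Krt8 between -0.074 and 0.036, Lama1 between -0.084 and 0.151, Sparc between -0.049 and 0.109 and Spry2 between -0.026 and 0.258. The cause of these changes was not tested. Genes at background on 1 day have only a bound, and bright probes such as Col4a2 leave little room for a rise.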
